A study of Homo sapiens with 48 samples.

Results

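The 7 genes described here, TNF, LTA, LTB, TNFSF10, TNFSF12, TNFSF15 and TNFSF9, encode ligands of the tumour necrosis factor (TNF) superfamily. They were chosen by name, with earlier results of these data known. Each was taken as its GENCODE gene body on hg38 plus 30 kb either side. TNF, LTA and LTB are neighbours on chromosome 6 and were taken as 1 locus, which gives 5 loci among 20033 protein-coding genes. Every peak that overlapped one of these loci by at least 1 bp was counted in each of 16 peak lists. The 5 loci held 147 of these peaks, of which 13 were RELA or RELB peaks, 16 were FOSL1 peaks and 118 were H3K27ac peaks, with a site called in several lists counted each time.

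The peaks come from ChIP-seq, which maps a protein or a histone mark by sequencing the DNA pulled down with an antibody, in L3.6pl, a human pancreatic ductal adenocarcinoma cell line. RELA, RELB and H3K27ac were each profiled after vehicle (PBS), after 30 min and 6 h of TNFα, and after 30 min and 6 h of TWEAK, and FOSL1 was profiled after vehicle alone. The 48 samples are 16 conditions of 3 replicates, but each condition has 1 peak list and none per replicate, so no value below carries a replicate error and no difference between lists was tested. How long vehicle was applied is not labelled, no genetic change of the cells is labelled, and all of the data are from 1 cell line, whose identity was not checked from these lists.

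TNF superfamily ligands are mostly type II membrane proteins that act as trimers, on the cell surface or after release, and bind receptors that signal to NF-κB, to cell death pathways or to both. TNF, lymphotoxin α (LTA) and lymphotoxin β (LTB) are the founding group. Lymphotoxin α is secreted, and LTB anchors it in the membrane as a mixed trimer that activates the noncanonical pathway. TNFSF10 encodes TRAIL, a ligand of death receptors. TNFSF12 encodes TWEAK, the ligand of the receptor Fn14, TNFSF15 encodes TL1A, the ligand of DR3, and TNFSF9 encodes 4-1BBL, a costimulator of T cells. The 2 ligands added to the cells are therefore the products of 2 of these genes, TNF and TNFSF12. RELA is the main DNA-binding partner of the canonical NF-κB pathway and RELB that of the noncanonical pathway. FOSL1 is an AP-1 subunit, and H3K27ac is a histone acetylation found at active promoters and enhancers.

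Of the 7 RELA peaks called in these loci after 30 min of TNFα, 5 held a match to the NF-κB consensus on either strand within 100 bp of the summit, the base with the highest signal. The sequence around each is printed from the hg38 plus strand, 5′ to 3′, with the match in capitals, because these are the bases under the RELA calls that the results turn on. The first lies at chr6:31578497-31578617, past the 3′ end of TNF. The second, at chr17:7558081-7558201, lies between the end of TNFSF12 and the start of TNFSF13. The third, at chr17:7561200-7561225, is a short stretch of the 3′ UTR of TNFSF13. The fourth is at chr9:114806293-114806413, before the start of TNFSF15, and the fifth at chr19:6556586-6556706, beyond TNFSF9. The last holds 2 overlapping matches that begin 1 base apart and share 9 bases, and they are counted as 1 site.
TNF: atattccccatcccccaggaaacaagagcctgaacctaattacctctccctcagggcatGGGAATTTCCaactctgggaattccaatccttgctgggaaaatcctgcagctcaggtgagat
TNFSF12, first site: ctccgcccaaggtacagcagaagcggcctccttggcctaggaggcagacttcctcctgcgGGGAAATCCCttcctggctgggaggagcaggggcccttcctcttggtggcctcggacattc
TNFSF12, second site: tctgctagGGAAAACCCCtggttctc
TNFSF15, start: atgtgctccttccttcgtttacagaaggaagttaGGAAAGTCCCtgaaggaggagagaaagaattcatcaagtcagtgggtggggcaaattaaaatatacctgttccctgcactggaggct
TNFSF9: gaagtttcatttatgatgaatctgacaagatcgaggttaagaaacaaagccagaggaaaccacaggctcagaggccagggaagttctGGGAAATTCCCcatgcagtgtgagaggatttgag

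Of all 11266 RELA peaks of 30 min of TNFα, 37.5% held the consensus within 100 bp of the summit, beside the 5 of 7 here. The genes and motifs were chosen with earlier results of these data known, so this difference is a description alone. The centre of the match lay 3.5 bp from the summit at the TNF site, 4.5 bp at the first and 7.5 bp at the second TNFSF12 site, 21.5 bp at the TNFSF15 start and 31.5 and 32.5 bp for the overlapping pair at the TNFSF9 site. The other 2 sites, inside TNFSF10 and in the 3′ UTR of TNFSF15, held no match in this window. The TNFSF10 site was the 1 of 7 with the AP-1 motif TGANTCA, which reads the same on both strands. Its match is centred 84 bp from the RELA summit and is shown in capitals in the hg38 plus-strand sequence of chr3:172516814-172516966. The match ends at 172516825, outside the called RELA peak, which begins at 172516829. The motif was present at 14.4% of all RELA peaks of 30 min of TNFα.
TNFSF10: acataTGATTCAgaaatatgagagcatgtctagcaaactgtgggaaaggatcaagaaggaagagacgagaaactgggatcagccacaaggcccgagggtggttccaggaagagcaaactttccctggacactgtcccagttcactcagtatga

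RELA peaks in the ligand loci came mostly from the TNFα lists. No locus held a RELA peak after vehicle, all 5 held at least 1 after 30 min of TNFα, 2 (TNFSF12 and TNFSF15) after 6 h of TNFα, 1 (TNFSF12) after 30 min of TWEAK and none after 6 h of TWEAK. By the same rule, the share of all protein-coding genes with a RELA peak was 3.63% after vehicle, 39.6% after 30 min of TNFα, 21.0% after 6 h of TNFα, 5.64% after 30 min of TWEAK and 3.82% after 6 h of TWEAK. The number of loci is small, and the 3 genes of the chromosome 6 locus share 1 peak, so the 5 of 5 rests on 7 peaks. The genes were also chosen with earlier results of these data known, so the 5 of 5 cannot be read as an excess over all genes. The windows of the 5 loci, 64.9 to 81.4 kb long, were shorter than the median window of all protein-coding genes, which was 87.5 kb. RELB peaks were rarer. TNFSF10 and TNFSF15 each held 1 RELB peak after 6 h of TWEAK, while the RELB lists of vehicle, 30 min of TNFα, 6 h of TNFα and 30 min of TWEAK held none in any of the 5 loci. The shares of all genes with a RELB peak were 2.26% after vehicle, 1.19% after 30 min of TNFα, 2.8% after 6 h of TNFα, 1.04% after 30 min of TWEAK and 10.2% after 6 h of TWEAK. In the lists where no ligand locus held a peak, the background share of genes was therefore at most 3.82%.

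**Figure D1:**
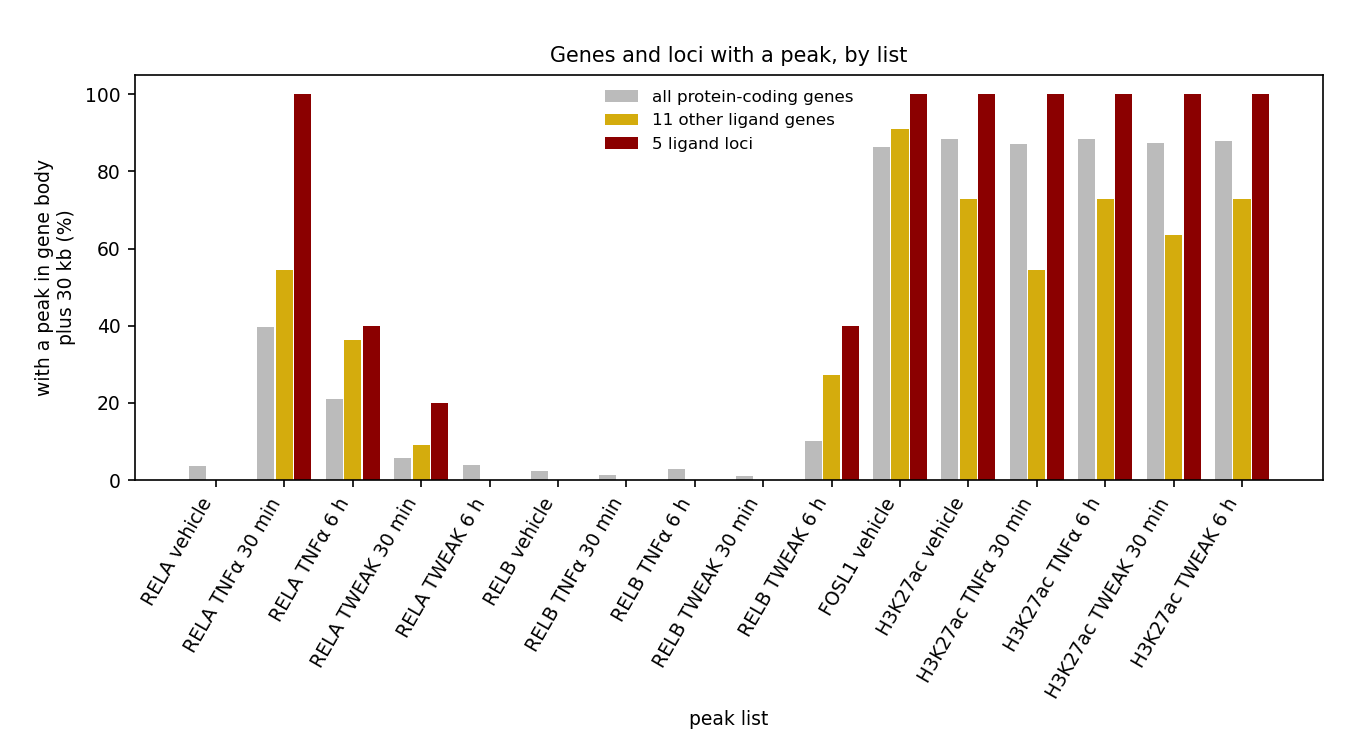
Share (%) of all 20033 protein-coding genes (grey), of the 11 other TNF superfamily ligand genes (yellow) and of the 5 ligand loci (red) that held at least 1 peak within the gene body plus 30 kb, for each of the 16 lists. The red bar stands at 5 of 5 loci for RELA after 30 min of TNFα, where the grey bar is at 39.6%, and at 2 of 5 for RELB after 6 h of TWEAK, where the grey bar is at 10.2%. A missing bar means that no gene or locus held a peak.

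The fold enrichment of a peak is the ratio of ChIP to input reads that the peak caller MACS2 gives. Over the 7 RELA peaks of 30 min of TNFα it ran from 3.82 to 9.51 with a median of 6.15, and the median of the whole list was 5.93. The TNFSF12 and TNF sites were the strongest of the 7, and 4 of the 7 lay above the median of their list. The first TNFSF12 site, at 9.51, was as high as or higher than 82.4% of the peaks of that list, and the TNFSF10 site, at 3.82, was as high as or higher than 5.32%. The strongest RELA peak of the list reached 36.4, so none of the ligand sites was near the top of it.

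**Figure D2:**
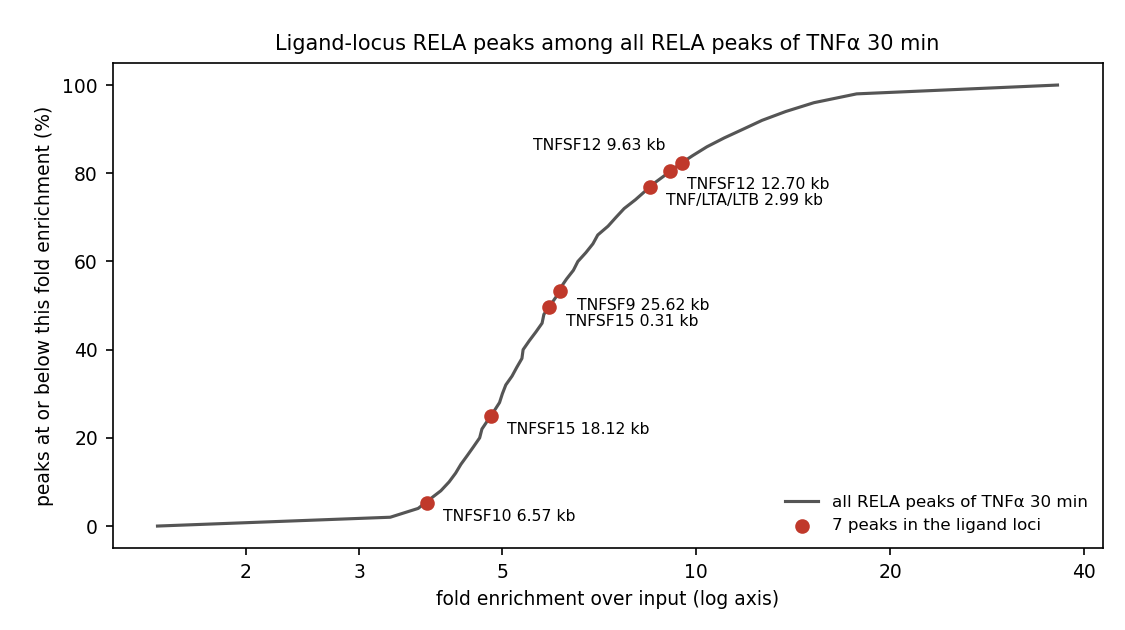
Fold enrichment over input (x, log axis) against the percentage of RELA peaks of 30 min of TNFα at or below that fold enrichment (y). The grey line is the whole list of 11266 peaks and the red points are the 7 peaks in the ligand loci, labelled with the distance from the gene start. The points spread along the line from 3.82 at TNFSF10 to 9.51 at TNFSF12.

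The chromosome 6 locus (TNF at chr6:31575565-31578336, plus strand, LTA at chr6:31572054-31574324, plus strand, and LTB at chr6:31580525-31582522, minus strand) held 1 RELA peak in 1 list. It was called after 30 min of TNFα at chr6:31578474-31578669 with a fold enrichment of 8.46 and a −log10 q of 13.4. Its summit at 31578557 lay 2992 bp after the start of TNF, 221 bp past its end and 1968 bp before the 3′ end of LTB, so it was intergenic between the 2 genes. The starts of TNF, LTA and LTB held no peak within 1 kb in any of the 16 lists. The site itself had no FOSL1 peak and no H3K27ac peak within 500 bp in any of the 5 acetylation lists. Peaks outside the numbered chromosomes, X and Y were left out of these counts. The RELA list of 30 min of TNFα kept 11266 of 11683 peaks, and the H3K27ac list of vehicle kept 59894 of 61826. Whether the peaks left out, or the way reads were aligned, affected this locus was not tested. On the sequences kept, the locus as a whole held few called peaks. Its only FOSL1 peak, with a fold enrichment of 3.56, lay 108 bp from the start of DDX39B, a gene for an RNA helicase, and its H3K27ac peaks (3 after vehicle and 2 in each other list) lay at the starts of DDX39B, NFKBIL1 and ATP6V1G2. The start of LTB carried the NF-κB consensus, the only match among the 7 ligand starts from 250 bp before to 50 bp after the start, a window in which 12.0% of all protein-coding genes held one. The TNFSF15 match printed above lies farther before its gene start than this window reaches. The window was chosen after the peaks had been seen. The LTB match lies 16 bp after the start. It is shown with 10 bases either side, chr6:31582492-31582521, because no RELA or RELB list had a peak there.
LTB: acacctggctGGGACTTTCCgcacacccct

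At TNFSF10 (chr3:172505508-172523475, minus strand) RELA and RELB peaks met at 1 intronic site. After 30 min of TNFα a RELA peak was called at chr3:172516829-172517157 with a fold enrichment of 3.82 and a −log10 q of 3.76, and after 6 h of TWEAK a RELB peak was called with a fold enrichment of 4.31 and a −log10 q of 4.01. The summits, 172516906 and 172516870, were 36 bp apart and about 6.57 kb inside the gene. Both peaks were weak within their lists, the RELB peak as high as or higher than 11.2% of the 4052 RELB peaks of 6 h of TWEAK. The same position was more strongly marked by FOSL1 after vehicle, with a fold enrichment of 6.46, as high as or higher than 70.4% of the FOSL1 list. H3K27ac covered the RELA summit in all 5 lists, with a fold enrichment of 2.85 after vehicle, 2.83 after 30 min of TNFα, 2.97 after 6 h of TNFα, 3.11 after 30 min of TWEAK and 3.05 after 6 h of TWEAK. TNFSF10 was the most broadly marked of the 5 loci before any ligand was added. It held 6 FOSL1 peaks, of which the strongest, at 10.5, lay 18.0 kb before the gene start, and 7 H3K27ac peaks in each of the 5 lists. The next RELA and RELB peaks lay outside the 30 kb limit on the upstream side. A RELA peak of 9.87 after 30 min of TNFα was 71.8 kb from the gene. A RELB peak of 15.0 after 6 h of TWEAK was 83.8 kb from it, and TNFSF10 was the nearest protein-coding start to both. Both sites were also called after 6 h of TNFα, the first by RELA at 6.59 and the second by RELB at 4.91.

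The TNFSF12 locus (gene at chr17:7548508-7557890, plus strand) held 2 RELA sites, both beyond the 3′ end of TNFSF12 and nearer to other genes. The first, chr17:7558017-7558289, was 251 bp past the end of TNFSF12 and 151 bp before the start of TNFSF13, the gene for the B cell ligand APRIL, inside an exon of the noncoding gene ENSG00000276384 and inside the read-through gene TNFSF12-TNFSF13. The second, chr17:7561089-7561424, was in the 3′ UTR of TNFSF13 and 714 bp before the start of SENP3, a SUMO protease gene. The start of TNFSF12 itself had no peak within 1 kb in any of the 16 lists. The second was called in 3 RELA lists, the most of the 7 sites, and the first in 2, as was the TNFSF15 start. The first had a fold enrichment of 9.51 after 30 min and 6.73 after 6 h of TNFα, and the second 9.12 and 7.67. The second site was also the only RELA call of the 5 loci after 30 min of TWEAK, with a fold enrichment of 4.54 and a −log10 q of 2.93, as high as or higher than 14.0% of that list. Neither site was in the RELA vehicle list, the RELA list of 6 h of TWEAK or any RELB list. The summits stayed within 34 bp of the 30 min TNFα summit in every RELA list that called them.

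Both TNFSF12 sites overlapped FOSL1 peaks of vehicle, with a fold enrichment of 6.56 at the first and 3.89 at the second, and the FOSL1 summits were 55 and 34 bp from the RELA summits. Acetylation lay beside the RELA summits rather than over them. At the first site the H3K27ac peak began 83 bp from the summit after vehicle, 78 bp after 6 h of TNFα, 115 bp after 30 min of TWEAK and 102 bp after 6 h of TWEAK. After 30 min of TNFα it was 900 bp wide, against 464 bp after vehicle, and covered the summit, although its fold enrichment was 2.32 against 2.54. At the second site the H3K27ac peak began 33 to 70 bp from the summit and extended into SENP3, and it covered the summit in 0 of 5 lists. Its fold enrichment was 3.93 after vehicle, 4.32 after 30 min and 4.02 after 6 h of TNFα, and 4.10 after 30 min and 4.22 after 6 h of TWEAK. The locus holds 7 other protein-coding genes, and its remaining FOSL1 peaks lay 182 bp from the start of EIF4A1, 24 bp from that of CD68 and 19 bp from that of MPDU1. Peaks in the TNFSF12 window therefore cannot be assigned to TNFSF12 by position.

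TNFSF15 (chr9:114784652-114806039, minus strand) was the only 1 of the 7 genes with a RELA or RELB peak within 1 kb of its start. After 30 min of TNFα a RELA peak at chr9:114806153-114806481 had its summit 314 bp before the start, with a fold enrichment of 5.91 and a −log10 q of 8.21. The same site was called after 6 h of TNFα with a fold enrichment of 6.92, and by RELB after 6 h of TWEAK with 8.36 and a −log10 q of 12.8. The RELB call was as high as or higher than 77.3% of its list, where the RELB call of TNFSF10 stood at 11.2%. The 3 summits lay within 42 bp of each other. Among all protein-coding genes, 8.04% had a RELA peak of 30 min of TNFα and 1.11% a RELB peak of 6 h of TWEAK within 1 kb of the start. A FOSL1 peak of 5.58 overlapped the RELA peak at its edge, with its summit 633 bp away on the gene side of the start. H3K27ac covered the RELA summit in all 5 lists, with a fold enrichment of 4.74 after vehicle, 4.44 after 30 min and 4.05 after 6 h of TNFα, and 4.75 after 30 min and 5.39 after 6 h of TWEAK.

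The second TNFSF15 site, chr9:114787806-114788091, lay 18.12 kb inside the gene in the 3′ UTR of its last exon. RELA was called there after 30 min of TNFα alone, with a fold enrichment of 4.80 and a −log10 q of 4.98. It carried no FOSL1 peak and no NF-κB or AP-1 match, but H3K27ac covered its summit in all 5 lists, at 4.17 after vehicle, 4.01 after 30 min and 3.61 after 6 h of TNFα, and 4.06 after 30 min and 3.43 after 6 h of TWEAK. The strongest FOSL1 peak of this locus, at 11.2, lay elsewhere, 26.3 kb after the gene start. TNFSF15 was the only protein-coding gene in its window, as TNFSF10 was in its own.

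The TNFSF9 locus (gene at chr19:6531026-6535924, plus strand) held 1 RELA peak, far from the gene and away from its marked chromatin. It was called after 30 min of TNFα at chr19:6556554-6556726, with a fold enrichment of 6.15 and a −log10 q of 7.16, and lay 25.62 kb after the gene start, 20.7 kb past its end. No FOSL1 peak overlapped it, and no H3K27ac peak lay within 500 bp in any list. It was the only 1 of the 7 sites whose surrounding 1000 bp reached a self-match of 0.4, the limit used here for a tandem repeat, with 0.414. Of all RELA peaks of 30 min of TNFα, 26.3% reached that limit. The start of TNFSF9, by contrast, had the highest acetylation of the 7 genes. Its H3K27ac peak had a fold enrichment of 6.62 after vehicle, 5.79 after 30 min and 6.41 after 6 h of TNFα, and 6.57 after 30 min and 6.63 after 6 h of TWEAK. Each of these was as high as or higher than at least 97.8% of its list, and none of the 10 RELA and RELB lists had a peak within 1 kb of that start.

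**Figure D3:**
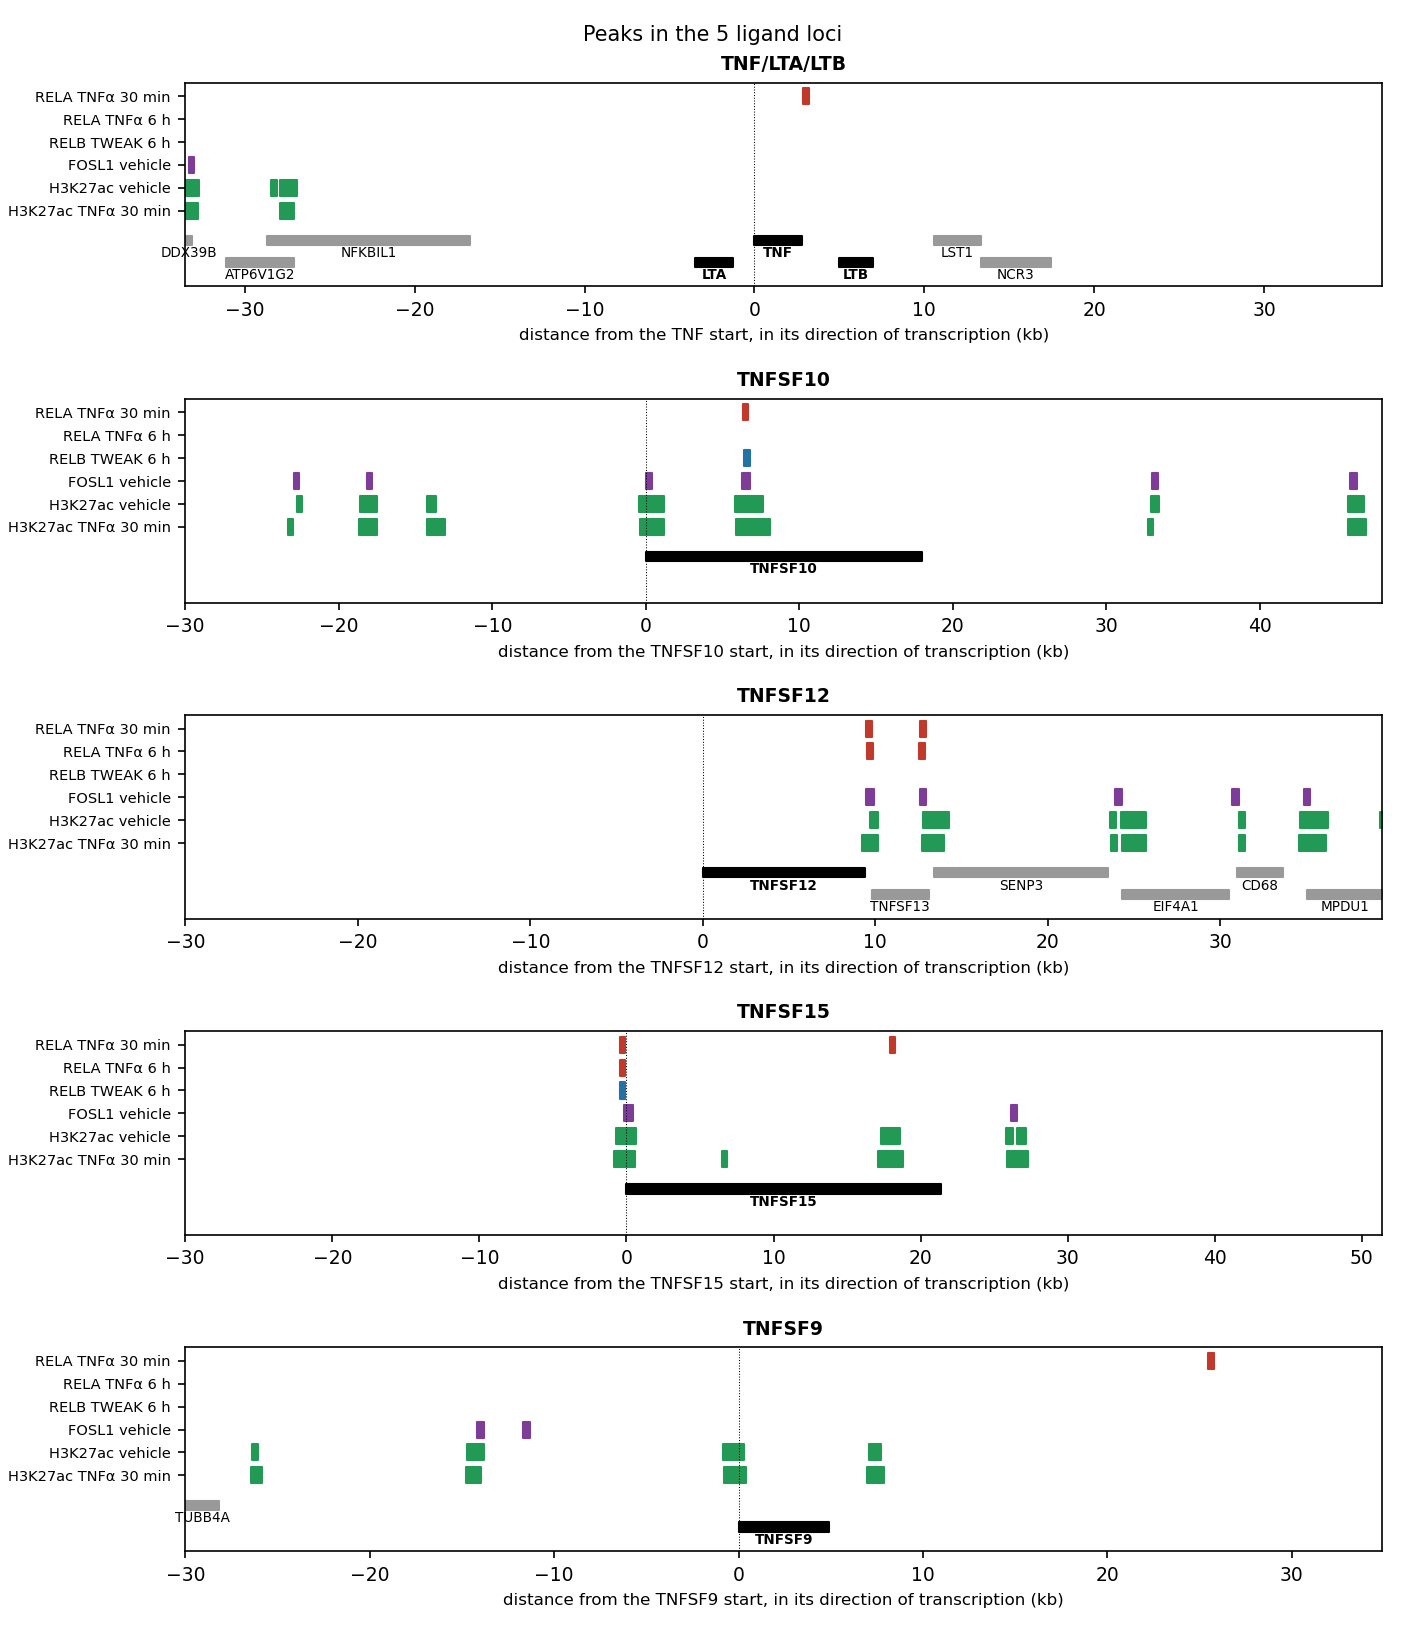
Peaks in the 5 loci for 6 of the 16 lists (rows), against distance from the gene start in kb along the direction of transcription (x, 0 at the dotted line). Black bars are the ligand genes and grey bars other protein-coding genes, with read-through genes left out, and peaks narrower than 0.35 kb are drawn at that width. The RELA peak of the TNF locus sits between TNF and LTB with no green or purple bar under it, while the RELA and RELB peaks of TNFSF10 sit on both.

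The 7 sites differed in their FOSL1 and H3K27ac calls. The 4 sites with a FOSL1 peak (TNFSF10, both TNFSF12 sites and the TNFSF15 start) and the 3′ UTR site of TNFSF15 had H3K27ac within 500 bp in all 5 lists, and the TNF and TNFSF9 sites had neither mark. Among all RELA peaks of 30 min of TNFα, 58.0% overlapped a FOSL1 peak, 60.1% had H3K27ac within 500 bp after vehicle and 71.2% after 30 min of TNFα, beside 4, 5 and 5 of the 7. No site gained or lost its H3K27ac call after a ligand. The 3 sites called again at 6 h of TNFα were the 2 of TNFSF12 and the TNFSF15 start, all with FOSL1, acetylation and the consensus, and 45.2% of all RELA peaks of 30 min overlapped a RELA peak of 6 h. The 2 sites shared with RELB after 6 h of TWEAK were TNFSF10 and the TNFSF15 start, beside 27.3% of all RELA peaks. None of the 7 was in the RELA vehicle list, which 19.3% of all RELA peaks of 30 min of TNFα overlapped. These counts describe 7 sites, and no difference from other RELA peaks was tested. How often FOSL1, H3K27ac and the consensus occur together over all RELA peaks was not counted. The combinations seen here therefore have no background share beside them.

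**Figure D4:**
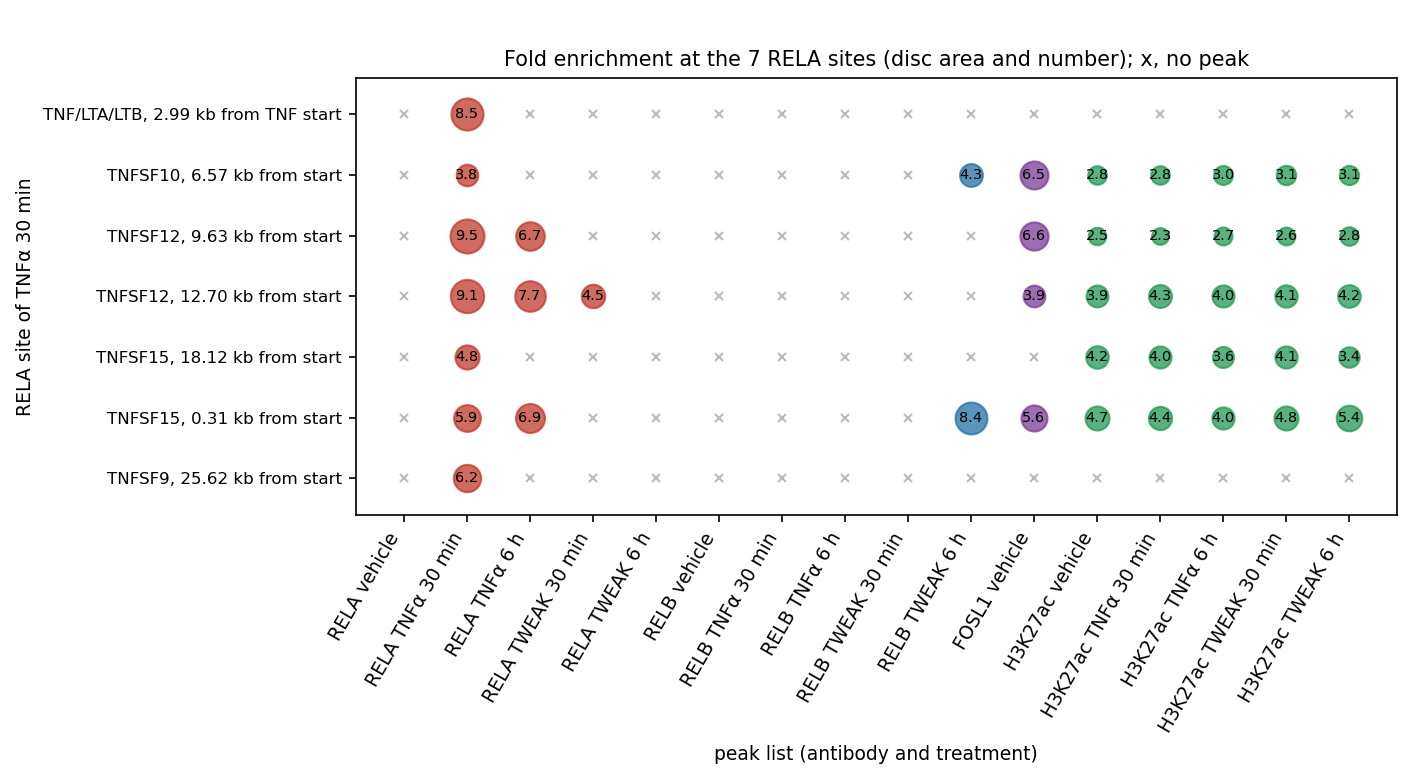
Fold enrichment at each of the 7 RELA sites of 30 min of TNFα (rows, with the distance from the start of the ligand gene) in the 16 lists (columns). Disc area and the printed number give the fold enrichment, and a cross means no peak. For RELA, RELB and FOSL1 the peak overlaps the RELA peak, and for H3K27ac it lies within 500 bp of the summit. The discs of the TNF and TNFSF9 rows are limited to 1 column, and the TNFSF15 start row has discs for RELA, RELB, FOSL1 and H3K27ac.

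At the gene starts, the 7 ligands fell into genes with an H3K27ac call and genes without one. TNFSF9, TNFSF10 and TNFSF15 had an H3K27ac peak within 1 kb of the start in all 5 lists, beside 55.9% of all protein-coding genes, and TNF, LTA, LTB and TNFSF12 had one in none. The fold enrichment ranged over the 5 lists from 2.31 to 2.84 at TNFSF10, from 4.05 to 5.39 at TNFSF15 and from 5.79 to 6.63 at TNFSF9. FOSL1 was called within 1 kb of the start of TNFSF10, at 4.26, and of TNFSF15, beside 41.4% of all genes.

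The acetylated length was highest in a TNFα list at TNFSF10, TNFSF15 and TNFSF9 and highest after vehicle at the chromosome 6 locus and TNFSF12. The highest H3K27ac fold enrichment of any peak in a window did not follow the length. After vehicle, 30 min and 6 h of TNFα, it was 4.32, 3.55 and 3.47 in the TNFSF10 window. Those values come from a peak about 46 kb from the TNFSF10 start, with GHSR as its nearest gene. At the TNFSF10 start the values were 2.65, 2.31 and 2.54. The highest lay at the gene start at TNFSF15 (4.74, 4.44 and 4.05) and at TNFSF9 (6.62, 5.79 and 6.41). In the chromosome 6 window it was 4.84 and 5.31 at the DDX39B start, then 4.90 at the ATP6V1G2 start. In the TNFSF12 window it was 4.64, 4.85 and 4.40, nearest to the start of EIF4A1. Whether acetylation changed was not tested. The 5 loci held 25 H3K27ac peaks covering 21.5 kb after vehicle, 23 covering 23.3 kb after 30 min of TNFα, 23 covering 23.4 kb after 6 h of TNFα, 23 covering 20.3 kb after 30 min of TWEAK and 24 covering 21.0 kb after 6 h of TWEAK. The whole lists covered 55.5, 45.1, 55.5, 46.9 and 46.5 Mb in the same order. Relative to vehicle the covered length of the 5 loci was 1.09 after 30 min and 1.09 after 6 h of TNFα, 0.948 after 30 min and 0.977 after 6 h of TWEAK, where that of the whole list was 0.813, 1.00, 0.845 and 0.837. TNFSF15 had 3.80 kb after vehicle, 4.81 kb after 30 min and 4.59 kb after 6 h of TNFα, and 3.48 and 3.22 kb after 30 min and 6 h of TWEAK. TNFSF10 had 6.88 kb after vehicle, 7.84 and 8.26 kb after TNFα and 6.70 and 7.38 kb after TWEAK. The chromosome 6 locus had 2.05 kb after vehicle and 1.48 to 1.82 kb after the ligands. TNFSF12 had between 5.35 and 5.71 kb in every list and TNFSF9 between 3.02 and 3.54 kb. At least 1 H3K27ac peak and 1 FOSL1 peak were found in all 5 loci in each list, near the shares of all genes with an H3K27ac peak, 88.4% after vehicle, 87.0% and 88.3% after 30 min and 6 h of TNFα and 87.3% and 88.0% after 30 min and 6 h of TWEAK, and with a FOSL1 peak, 86.3%.

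**Figure D5:**
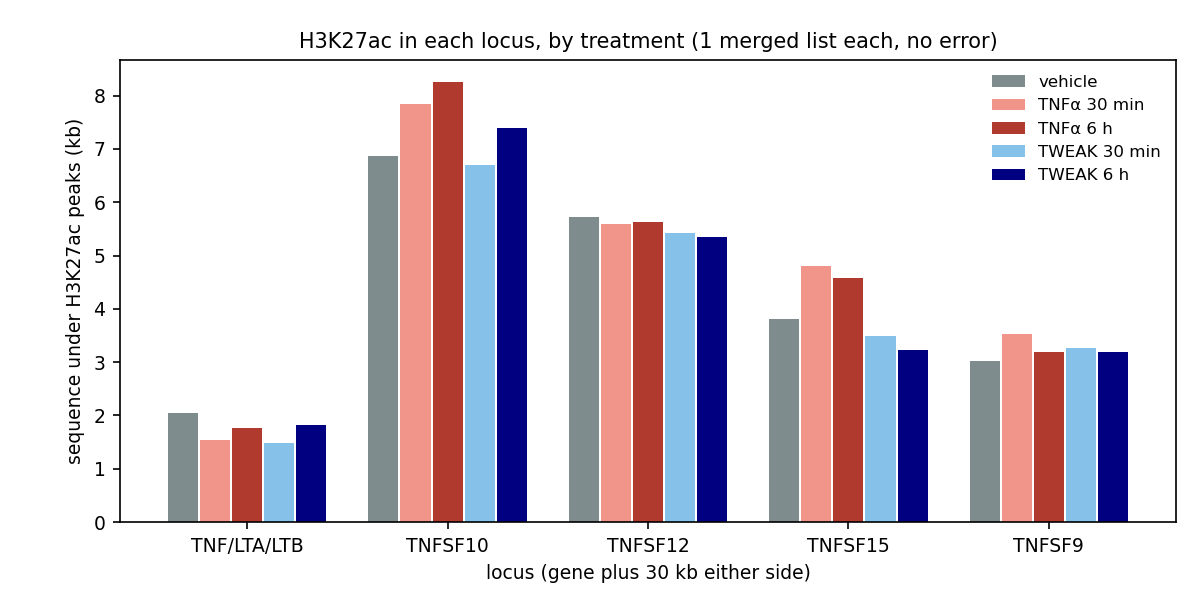
Length of sequence under H3K27ac peaks in each ligand locus (y, kb) after vehicle (grey), TNFα (reds) and TWEAK (blues), from 1 merged list each and so without error bars. TNFSF10 and TNFSF15 stand highest in the 2 TNFα lists, at 7.84 and 8.26 kb and at 4.81 and 4.59 kb, while the chromosome 6 locus is highest after vehicle at 2.05 kb. The bars give length alone and not fold enrichment.

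The family has other ligand genes, and 11 of them (TNFSF4, CD40LG, FASLG, CD70, TNFSF8, TNFSF11, TNFSF13, TNFSF13B, TNFSF14, TNFSF18 and EDA) were counted in the same way. A RELA peak was found at 6 of the 11 after 30 min of TNFα, 4 after 6 h of TNFα, 1 after 30 min of TWEAK and none after vehicle or 6 h of TWEAK. The shares of all protein-coding genes in the same order were 39.6%, 21.0%, 5.64%, 3.63% and 3.82%. A RELB peak was found at 3 of the 11 after 6 h of TWEAK, beside 10.2% of all genes, and at none in the other 4 RELB lists. The genes are not all separate from the 5 loci, since TNFSF13 shares both sites of TNFSF12, and the window of CD70, the ligand of CD27, takes in the TNFSF9 site. CD70 had 2 RELA sites of its own after 30 min of TNFα, 7.35 at 12.9 kb and 8.12 at 12.0 kb from its start. Both were called again by RELA after 6 h of TNFα, at 4.67 and 5.03. The site at 12.0 kb was also called by RELB after 6 h of TWEAK at 5.09.

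The strongest RELA peak among these genes lay 1778 bp before the start of TNFSF18, the gene for the ligand of GITR. It had a fold enrichment of 13.7 after 30 min and 9.91 after 6 h of TNFα, and a RELB peak of 6.31 after 6 h of TWEAK. TNFSF4, the gene for OX40 ligand, had a site 17.0 kb after its start with RELA at 10.6 after 30 min and 5.48 after 6 h of TNFα and RELB at 5.88 after 6 h of TWEAK. TNFSF8 (5.00) and TNFSF14 (5.37) had a RELA peak after 30 min of TNFα alone. The remaining 5 genes, CD40LG, FASLG, TNFSF11, TNFSF13B and EDA, had no RELA or RELB peak in any list. FOSL1 was present in 10 of the 11 windows, and H3K27ac in 8 after vehicle, 6 after 30 min of TNFα, 8 after 6 h of TNFα, 7 after 30 min of TWEAK and 8 after 6 h of TWEAK. The shares of all genes in the same order were 86.3% for FOSL1 and 88.4%, 87.0%, 88.3%, 87.3% and 88.0% for H3K27ac. All 5 RELB peaks of 6 h of TWEAK at these genes, 2 at the 7 and 3 at the other 11, overlapped a RELA peak of 30 min of TNFα, as did 76.1% of that whole RELB list.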

How the data were processed

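ChIP DNA of 48 L3.6pl samples was sequenced. Reads were aligned by the authors to hg38 (Bowtie2 2.5.0), who called peaks with MACS2 against input, narrow or, for H3K27ac, broad with a cutoff of 0.05. RELA was pulled down with protein G beads and the other targets with protein A. Each condition has 1 deposited list, of merged replicates by its name. The peak names of the RELA list of 30 min of TNFα name both replicate 1 and a merge, so whether it pools 3 replicates is open. The deposited fold enrichment is a ratio over input, and the deposited −log10 q is the authors' significance of a peak, averaged over the peak in broad lists. Depth per sample is unknown.

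Peaks of chromosomes 1 to 22, X and Y, the sequences kept here, were intersected (1 bp or more) with GENCODE 44 protein-coding genes plus 30 kb either side using own code on Python 3.11.15, numpy 2.4.6 and pandas 2.3.3. The overlap and self-match functions were tested on simulated data. Ranks are within 1 list. Fold enrichments of separate lists were not put on a common scale. The named genes are the 7 members, the genes nearest to their RELA or RELB peaks, and 11 other ligand genes; members, lists and motifs were chosen with earlier results of these data known. The windows at gene starts were chosen after the peaks had been seen. The AP-1 motif and the NF-κB consensus were searched on hg38.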

Additional observations from a re-analysis of the deposited data

How the results depend on the processing

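Of 94 alternative values, 75 stayed within 1.5 times the reported count and 19 moved. Part of the 75 could not have moved. The narrower flank and the filters on q, fold enrichment, nearest start and tandem repeats only remove peaks, so a count of 0 stayed 0. With 100 kb flanks in place of 30 kb, there were 4 RELA loci and 1 RELB locus at 6 h of TNFα and 14 RELA peaks of 30 min of TNFα, of which 9 overlapped FOSL1, 4 overlapped RELB of 6 h of TWEAK, and 11 had H3K27ac after vehicle and 11 after 30 min of TNFα. With 10 kb flanks the TNFSF9 site left the window and 4 RELA loci remained at 30 min of TNFα, and leaving out tandem repeats removed the same site. With a fold enrichment of at least 5, 4 RELA loci and 5 RELA peaks remained at 30 min of TNFα. The TNFSF10 site and the 3′ UTR site of TNFSF15 were lost. There were then 0 RELA loci at 30 min of TWEAK and 1 RELB locus at 6 h of TWEAK. Overlaps with FOSL1, RELB and H3K27ac (vehicle and 30 min of TNFα) were 2, 1, 3 and 3. A q of at most 0.001 left 0 RELA loci at 30 min of TWEAK. Keeping only peaks whose nearest start belongs to one of the 7 genes removed both TNFSF12 sites. That left 4 RELA loci and 5 RELA peaks for 30 min of TNFα, 1 RELA locus for 6 h of TNFα and 0 for 30 min of TWEAK. Overlaps were then 2 with FOSL1 and 3 (vehicle) and 3 (30 min of TNFα) with H3K27ac. Requiring 50% overlap of the shorter peak left 3 FOSL1 overlaps, without the TNFSF15 start.

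No paired analysis was possible because there is 1 list per condition and none per replicate, and no replicate was left out for the same reason. A missing peak means that none was called in that list, not that no binding occurred, and the depth behind each list is unknown. The vehicle, 30 min and 6 h lists also differ in their total number of peaks, from 2414 to 11266 for RELA and RELB. Whether differences in depth or antibody yield moved these counts was not tested.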
